A study of Sus scrofa with 15 samples.

Results

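MicroRNAs of peripheral whole blood were compared between domestic pigs aged 60 days and pigs aged 30 days. The study's design puts day 30 at weaning and day 60 in what it calls childhood, so the comparison covers the month after weaning. It uses 6 of the 15 libraries of the series, the 3 biological replicates of each of these 2 ages, and all listed miRNAs. The deposited table lists 295 miRNAs. Of these, 2 repeat another row in every library (miR-199b-3p and miR-9-1) and were dropped, which left 293, and 215 passed a low-count filter and were tested. All groups of the series are untreated blood of domestic pigs that differ in age (0, 30, 60, 180 and 360 days). The other 3 ages enter the low-count filter, the scaling factors of the libraries, the estimate of the spread and the levels by age. The labels give neither breed nor sex, and they do not say whether the animals of both ages were related. Whole blood mixes red cells, platelets and leucocytes, so more cells of a type and more of a miRNA per cell cannot be told apart in these libraries.

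A miRNA is a short RNA that guides Argonaute proteins to messenger RNAs that match its seed, the bases near its 5′ end, and lowers their translation and stability. Most miRNAs are cut from a hairpin, either arm of which (5p or 3p) can be kept, and neighbouring hairpins are often transcribed together as a cluster. Blood carries an abundant red-cell set (miR-451, miR-144, miR-486), progenitor miRNAs of the miR-17-92 cluster, lymphocyte miRNAs (miR-150, miR-155, miR-181) and myeloid miRNAs (miR-142, the miR-23/24/27 clusters). The let-7 family is held low by LIN28 in fetal cells and accumulates as tissues mature.

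Total counts of the 6 libraries ran from 7175176 to 9053574, both in day 30 libraries, and 248 to 256 miRNAs had at least 1 count in each. Levels below are CPM, which brings counts to a common library size, scaled by TMM factors, which correct for a few very abundant miRNAs taking up a library, and log2 fold changes are day 60 minus day 30. The factors were 1.13, 1.85 and 0.744 in day 30 replicates 1, 2 and 3, and 1.18, 1.14 and 1.10 at day 60. Because the day 30 factors differ this much, results were also read as the share of a library's counts, which uses no such factor. A count of 3, the limit that a count of 0 allows, stood for 0.201 to 0.445 TMM-scaled CPM, counting error only. Over the 148 miRNAs with a mean of at least 10 CPM, the median absolute log2 difference between 2 libraries was 0.279 to 0.523 within an age and 0.358 to 0.670 between the ages, so the ranges overlapped. The lists of blood cell miRNAs took these shares of the counts in the 6 libraries: erythroid 32.6% to 43.9%, lymphoid 3.96% to 8.96%, platelet and vascular 2.26% to 4.63%, and myeloid 0.188% to 1.10%. Lists of other tissues were low, with muscle at 0.00518% to 0.0126%, liver at 0.00981% to 0.0181% and epithelium at most at 8.69e-05%. These shares cover only miRNAs that were deposited. The myeloid list lacks miR-223, which is not among them, and only 2 epithelial miRNAs, miR-205 and miR-429, are. The low myeloid and epithelial shares are therefore not measures of those cells. The brain list reached 2.34% to 5.27% through miR-7, which blood also carries.

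No miRNA passed the test between days 30 and 60: 0 of 215 (0%) had an adjusted p under 0.05 (edgeR quasi-likelihood test with Benjamini-Hochberg adjustment, lowest adjusted p = 0.423). At an unadjusted p under 0.05 there were 18 miRNAs (8.37% of those tested), 7 of them higher at day 60 (3.26%) and 11 lower (5.12%). DESeq2 and limma-voom also called 0, with 20 and 13 miRNAs at an unadjusted p under 0.05. The lowest adjusted p was 0.0747 with DESeq2, shared by miR-218-5p, miR-182, miR-210, miR-183 and let-7d-5p. With only the 6 libraries in the edgeR fit it was 0.0731, for miR-30a-5p, miR-218-5p and miR-6782-3p. In 40 of the 215 (18.6%) all 3 libraries of an age lay above all 3 of the other on TMM-scaled CPM, 18 higher at day 60 (8.37%) and 22 lower (10.2%). On shares of counts 21 did so (9.77%), and 19 did so in the same direction on both scales (8.84%). Libraries in random order separate 3 against 3 with a probability of 0.1. The percentages on shares and on both scales lie near that rate, and the one on TMM-scaled CPM lies above it. A lack of overlap in a single miRNA is therefore given below as a description only. The 95% interval of a log2 fold change reached 1.14 on either side in the median of the 148 miRNAs of at least 10 CPM. The values that follow therefore describe these 6 libraries, and none of them is a change that passed the test.

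**Figure D1:**
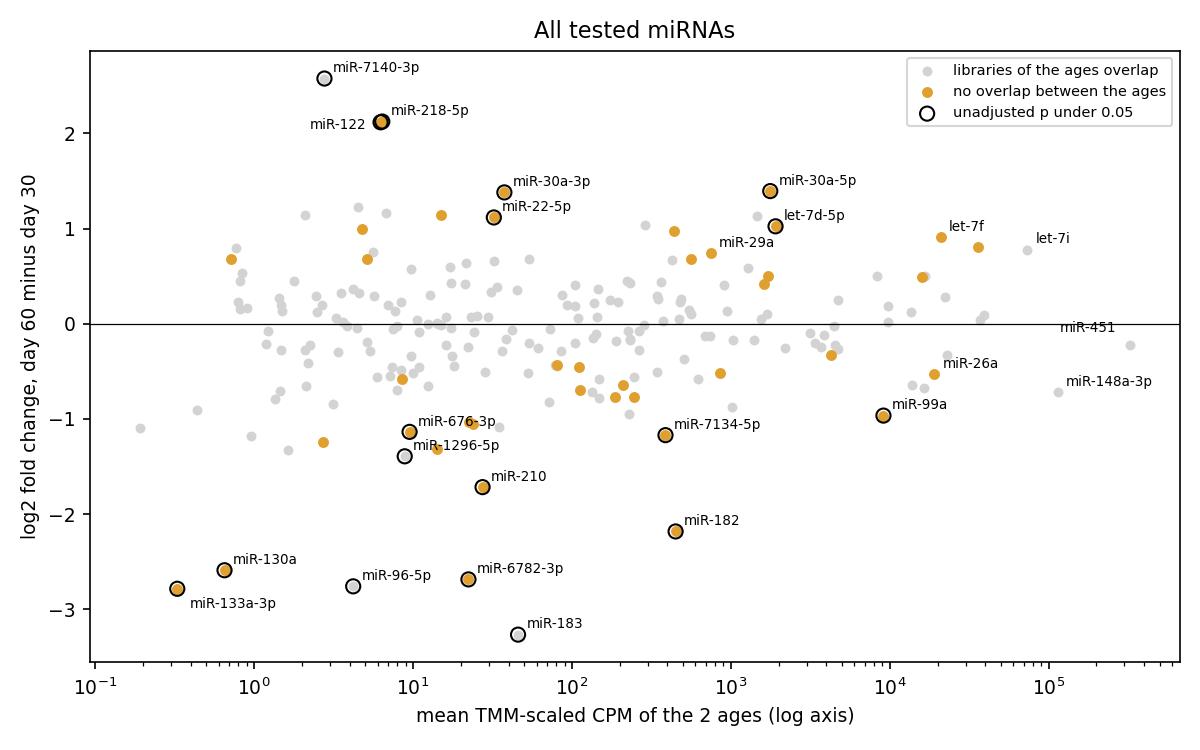
Each point is 1 of the 215 tested miRNAs, with its mean TMM-scaled CPM over both ages (log axis) and its log2 fold change, day 60 minus day 30. Orange points have no overlap between the libraries of the ages (40 miRNAs) and ringed points an unadjusted p under 0.05 (18 miRNAs), and the ringed points at the left edge, miR-130a and miR-133a-3p, rest on at most 15 counts in any of the 6 libraries.

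The let-7 family had higher values at day 60. Its 9 listed miRNAs together took 8.77%, 14.6% and 13.2% of the counts in day 30 replicates 1, 2 and 3, and 23.2%, 20.8% and 20.6% at day 60. The summed share averaged 12.2% ± 3.03 at day 30 and 21.5% ± 1.44 at day 60 (SD, n = 3), and the ages did not overlap. Of the 9 members, 8 had a positive log2 fold change, against 101 of all 215 tested (47.0%). Their median was 0.78, beside -0.02 over all tested miRNAs, and 0 of the 9 passed the test. The median lay between 0.75 and 0.87 under the other 3 scalings and between 0.53 (without day 30 replicate 1) and 1.05 (without day 30 replicate 3) with 1 library left out. Counts of signs in the lists below have the same background, 101 positive and 114 negative of 215 tested.

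let-7i, the most abundant member, was at 33018, 29230.3 and 99694 TMM-scaled CPM in the day 30 libraries and at 97004, 88006 and 92558 at day 60. Day 30 replicate 3 lay above every day 60 library on this scale, so the ages overlapped. As a share of counts let-7i took 3.75%, 5.42% and 7.42% at day 30 and 11.5%, 9.99% and 10.2% at day 60, with no overlap. The mean share was 5.53% ± 1.84 at day 30 and 10.5% ± 0.811 at day 60 (SD, n = 3), and a two-sided exact permutation test gave p = 0.1, the smallest that 3 against 3 allows. The log2 fold change of let-7i was 0.78 ± 0.50 (SE; edgeR adjusted p = 0.890), and 1.62 without day 30 replicate 3.

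let-7g was at 17417, 24914 and 35985 TMM-scaled CPM at day 30 and at 46885, 45974 and 43559.9 at day 60. let-7f was at 10760.0, 11082 and 21755 and then at 29246, 23315 and 29312. let-7a was at 12821, 9981 and 16805 and then at 18126, 20034 and 17652. These 3 miRNAs did not overlap between the ages on either scale, with log2 fold changes of 0.80, 0.91 and 0.49. Without day 30 replicate 3 the value for let-7f was 1.38.

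let-7d-5p had the lowest p of the family. Its 3 day 30 libraries were at 863, 1538 and 1386 TMM-scaled CPM and its day 60 libraries at 2546, 2761 and 2389, which is 1.02 ± 0.38 on the log2 scale (SE; adjusted p = 0.423, edgeR). let-7d-3p, cut from the other arm of the same hairpin and so with another seed, was at 286, 298 and 300.4 and then at 409, 724 and 606. Both arms of let-7d thus lay higher in every day 60 library on TMM-scaled CPM, and both overlapped between the ages as shares of counts. miR-98, a let-7 relative, had a log2 fold change of 0.43 ± 0.59 with overlapping libraries.

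let-7c and let-7e stood apart from these members. let-7c was at 1921, 1171 and 1378 TMM-scaled CPM at day 30 and at 1097, 1606 and 1265 at day 60 (log2 fold change -0.17 ± 0.49, 0.06 without day 30 replicate 1). let-7e, the least abundant member, was at 19.03, 17.6 and 31.8 and then at 31.9, 30.5 and 9.14. Within a library, which needs no scaling, there were 5.60, 9.46 and 15.8 let-7f counts per let-7c count at day 30 and 26.7, 14.5 and 23.2 at day 60. Members of the family differ by few bases and may share reads.

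**Figure D2:**
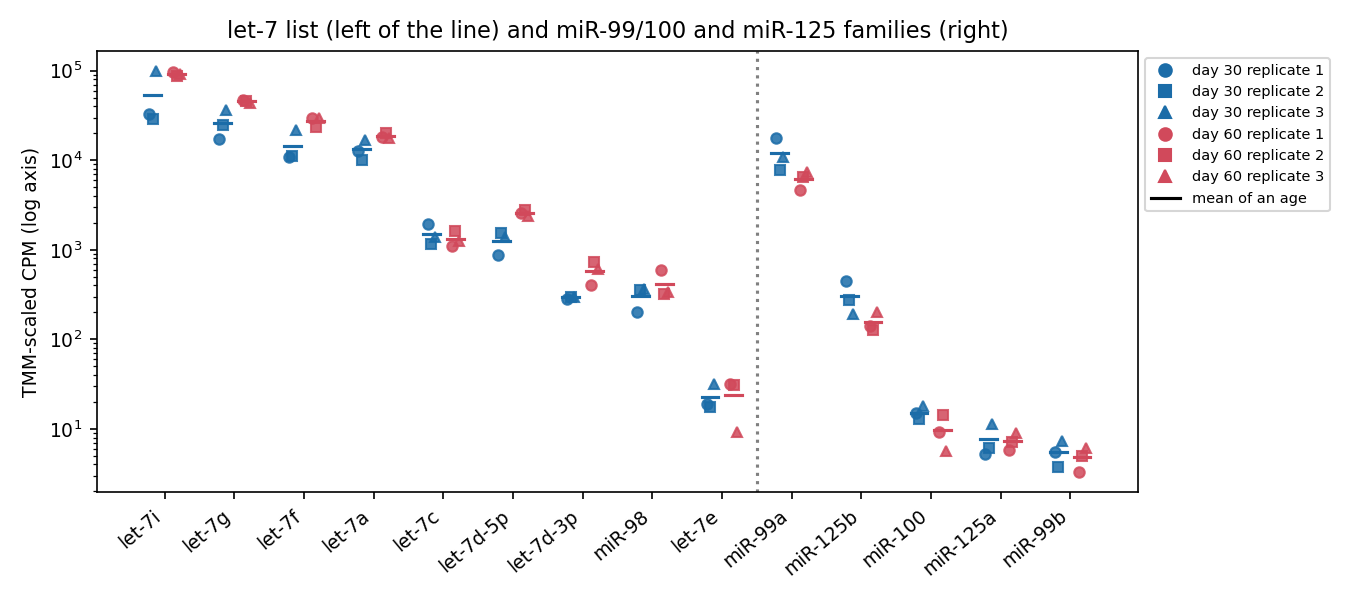
TMM-scaled CPM on a log axis of the 9 let-7 list members and the 5 members of the miR-99/100 and miR-125 families, with a symbol for each library, blue for day 30 and red for day 60, and a bar at the mean of each age. let-7g, let-7f, let-7a and both arms of let-7d lie higher in all 3 day 60 libraries, and miR-99a lies lower in all 3.

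The miR-99/100 and miR-125 families, whose genes stand beside let-7 genes, had lower mean values at day 60. Their summed share of counts was 2.05%, 1.507% and 0.8219% in day 30 replicates 1, 2 and 3. At day 60 it was 0.57%, 0.7565% and 0.8362%, so the ages overlapped. All 5 tested members had a negative log2 fold change, with a median of -0.65 (-0.58 to -0.70 under the other scalings, and with the scaling that leaves out the largest miRNAs 1 member was positive). Without day 60 replicate 3 the median was -0.28. With day 30 replicate 3 or day 60 replicate 1 left out, 2 of the 5 members were positive (medians -0.47 and -0.60). miR-99a, at 17592, 7835 and 10822 TMM-scaled CPM at day 30, was at 4659, 6510.1 and 7391 at day 60. The ages of miR-99a did not overlap on this scale but did as shares of counts. Its log2 fold change was -0.97 ± 0.44 (edgeR adjusted p = 0.580), and -0.59 without day 30 replicate 1. miR-125b, a regulator of haematopoietic stem cells and lymphoid output, was at 449, 272 and 189 and then at 142, 126.4 and 203, with overlap in 1 day 60 library. miR-100 averaged 15.2 ± 2.52 and 9.67 ± 4.29 (SD, n = 3). miR-125a and miR-99b stayed between 3.29 and 11.4 in the 6 libraries, with log2 fold changes of -0.06 and -0.19.

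The RefSeq annotation of Sscrofa11.1, used only for gene order, places the genes of let-7c and miR-99a next to each other. Their day 60 means were both below their day 30 means. Counts of let-7c per miR-99a count were 0.109, 0.149 and 0.127 at day 30 and 0.235, 0.247 and 0.171 at day 60, so the 2 neighbours did not keep a fixed ratio. A second gene group, let-7a-2, let-7f-2 and let-7d, had a positive log2 fold change for all 4 tested products (let-7a, let-7f and both arms of let-7d). let-7a and let-7f have further gene copies elsewhere, and their reads cannot be assigned to a copy. let-7a-1 stands beside miR-100, and there the values went in opposite directions, 0.49 for let-7a and -0.65 for miR-100.

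Several other miRNAs had higher values at day 60. miR-30a-5p, which represses the autophagy gene BECN1, was at 732, 1212 and 989 TMM-scaled CPM at day 30 and at 2867, 1699.9 and 3137 at day 60, a log2 fold change of 1.39 ± 0.58 (edgeR adjusted p = 0.524). The opposite arm, miR-30a-3p, was at 21.5, 20.9 and 20.3 and then at 45.8, 37.5 and 79.9, or 1.38 ± 0.52 (adjusted p = 0.423, edgeR). The day 30 libraries of miR-30a-3p were nearly equal on TMM-scaled CPM, and its ages did not overlap on either scale. Those of miR-30a-5p did not overlap on TMM-scaled CPM but overlapped as shares of counts. Of the 10 tested miRNAs of the miR-30 list, which holds both arms of several hairpins, 5 were positive and 5 negative, with a median of 0.02 (-0.07 with library totals only). That split depended on single libraries: 8 of 10 were positive without day 30 replicate 2 (median 0.26) and 7 of 10 without day 60 replicate 3 (median 0.13), and over all left-out libraries the median ran from 0.04 to 0.26. miR-30d, its most abundant member, had a log2 fold change of -0.33 ± 0.41. Counts of miR-30a-5p per miR-30d count were 0.0266, 0.0640 and 0.0328 at day 30 and 0.138, 0.105 and 0.132 at day 60, with no overlap.

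Both arms of miR-22, which targets the DNA demethylase TET2 in blood cells, also lay higher in all day 60 libraries on TMM-scaled CPM. miR-22-5p was at 20.1, 20.02 and 21.1 TMM-scaled CPM at day 30 and at 37.0, 53.3 and 42.4 at day 60 (log2 fold change 1.12 ± 0.49). miR-22-3p was at 402, 495 and 397 and then at 882, 502 and 684 (0.68 ± 0.47). Its closest libraries, 495 and 502, nearly touched. As shares of counts the ages of miR-22-3p overlapped, and those of miR-22-5p did not.

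The miR-29 family, which represses collagens and DNA methyltransferases, had 3 positive members of 3 and a median of 0.75 (0.58 to 0.82 under the other scalings). miR-29a was at 390.0, 703 and 583 TMM-scaled CPM at day 30 and at 1071, 809 and 923 at day 60 (0.74 ± 0.40). miR-29b averaged 9.42 ± 2.22 and 20.9 ± 12.3 (SD, n = 3), and its log2 fold change of 1.15 was 0.55 without day 60 replicate 1. Neither was free of overlap as a share of counts.

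In the innate immune response list, 6 of 9 tested members were positive, with a median of 0.21 (0.04 with library totals only). miR-146a-5p, which represses IRAK1 and TRAF6 and so dampens NF-kB signalling, was at 1306, 1416 and 1509.5 TMM-scaled CPM at day 30 and at 2086, 1910.5 and 2005 at day 60 (log2 fold change 0.50 ± 0.36). The replicates of miR-146a-5p lay close together and the ages did not overlap on this scale, but they did as shares of counts. miR-132, induced in monocytes by bacterial products, was at 5.16, 2.81 and 4.01 and then at 5.65, 7.45 and 5.99, without overlap on either scale. miR-155-5p, made in activated lymphocytes and macrophages, averaged 128 ± 19.9 at day 30 and 148 ± 21.8 at day 60, and miR-21 averaged 4002 ± 1205 and 3372 ± 285 (SD, n = 3), both with overlap. miR-9, another list member, averaged 90.4 ± 23.98 and 119.7 ± 35.5.

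**Figure D3:**
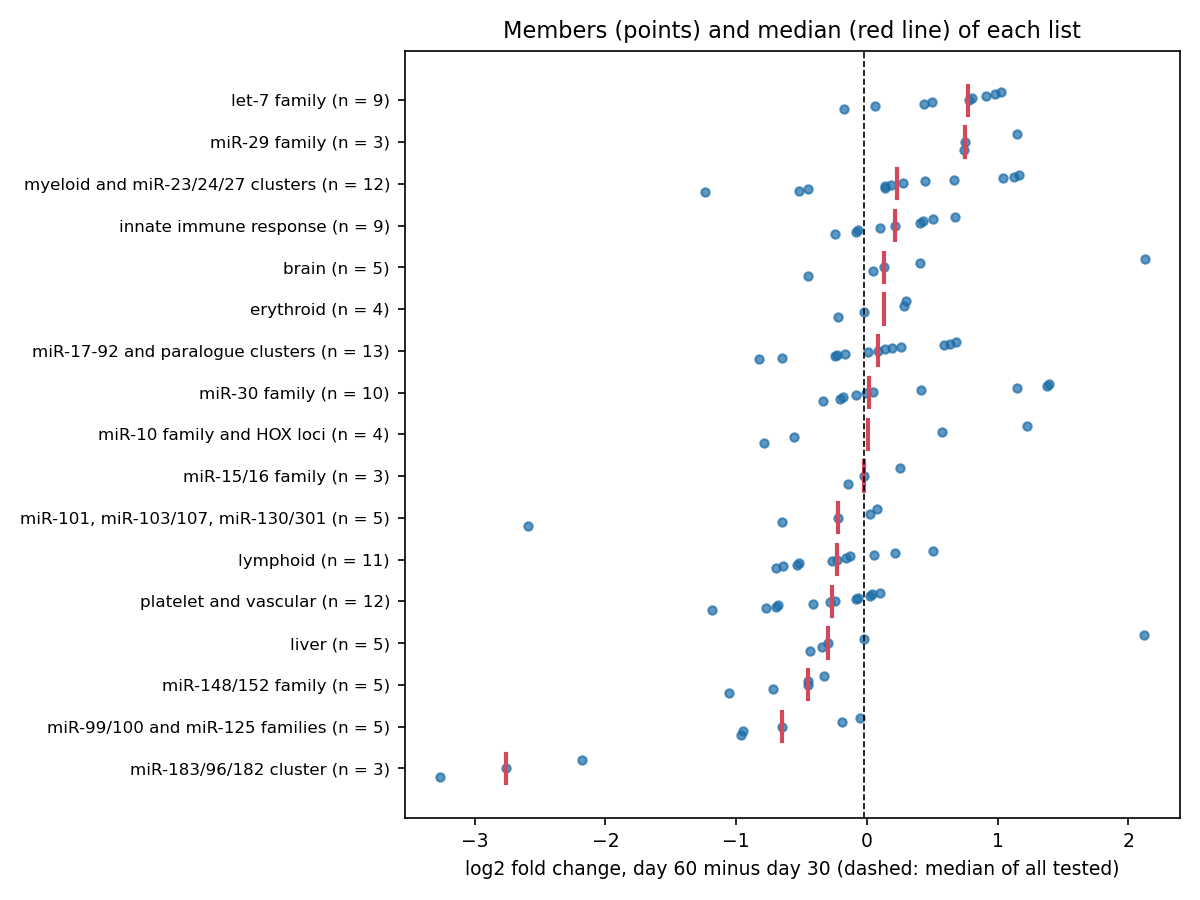
Log2 fold changes, day 60 minus day 30, of the tested members of each list with at least 3 of them (points, spread vertically only for legibility) with the list's median in red and the median of all 215 tested miRNAs as a dashed line. The muscle list, which holds members at the limit of 3 counts, is left out. The point of miR-130a, also at or below 3 counts in every day 60 library, is still shown in the list with miR-101 and miR-103. The let-7 and miR-29 medians, 0.78 and 0.75, lie farthest right, and the median of miR-183, miR-96 and miR-182, -2.76, farthest left, the latter resting on day 30 replicate 1.

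In the lymphoid list, 8 of 11 tested members had a negative log2 fold change, against 114 of all 215 tested, with a median of -0.23. Without day 30 replicate 2 the median was 0.03 and 6 of 11 were positive, and it was -0.12 without day 30 replicate 1, -0.14 without day 60 replicate 3 and -0.35 with library totals only. miR-26a, a repressor of EZH2 expressed in many cells, was the most abundant of them. Its day 30 libraries were at 23023, 20795 and 23652 TMM-scaled CPM and its day 60 libraries at 16147, 14986 and 15499, a log2 fold change of -0.53 ± 0.35 (edgeR adjusted p = 0.890). As shares of counts the ages of miR-26a overlapped, at 2.61%, 3.86% and 1.76% against 1.91%, 1.70% and 1.70%. miR-342, encoded within the EVL gene and abundant in lymphocytes, was at 1027, 1105 and 900.0 and then at 559, 687 and 871. miR-181d-5p was at 315, 247 and 205 and then at 124, 173 and 194. Its genomic neighbour miR-181c averaged 9.77 ± 3.04 and 6.06 ± 2.001 (SD, n = 3).

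Other members of the lymphoid list, not all of which are particular to lymphocytes, overlapped between the ages. miR-150, which marks mature B and T cells, averaged 1515 ± 321 TMM-scaled CPM at day 30 and 1571 ± 323 at day 60. miR-181a, which sets the sensitivity of the T-cell receptor, was at 6383, 6276 and 2848 and then at 4509.7, 4154 and 4205. miR-128 averaged 4863 ± 624 and 4159 ± 373, and miR-140-3p 13829 ± 4181 and 19603 ± 2809 (SD, n = 3).

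In the platelet and vascular list, 9 of 12 tested members were negative, against 114 of all 215 tested, with a median of -0.27. With library totals only 0 of 12 were positive, but that scaling left only 88 of all 215 positive, with a median of -0.17. The median of the list was -0.08 without day 30 replicate 3, -0.11 without day 60 replicate 3 and -0.17 without day 30 replicate 2. miR-126-3p, the endothelial miRNA encoded in EGFL7 and also found in platelets, was at 236, 196 and 279 TMM-scaled CPM at day 30 and at 132, 179 and 104 at day 60 (log2 fold change -0.77 ± 0.46), without overlap on either scale. Both arms of miR-151 had negative values, -0.70 for miR-151-5p and -0.68 for miR-151-3p. miR-151-5p was at 125, 189 and 105 and then at 76.2, 93.4 and 89.1, without overlap on this scale, while miR-151-3p ranged from 5062 to 27502 over the 6 libraries. miR-191, an abundant miRNA of blood cells, averaged 9687 ± 1921 and 9824 ± 664 (SD, n = 3).

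The list of miR-148 and miR-152, a family that represses the DNA methyltransferase DNMT1, was negative in 5 of 5 tested miRNAs. It holds both arms of miR-148a and of miR-148b, so not all 5 share the family's seed or are independent readings. The median was -0.45 (-0.39 to -0.56 under the other scalings, -0.70 without day 60 replicate 1 and -0.29 without day 60 replicate 3). Without day 30 replicate 3, 1 of the 5 was positive. miR-152 was at 33.8, 29.1 and 33.9 TMM-scaled CPM at day 30 and at 8.43, 19.9 and 18.2 at day 60, without overlap on either scale (log2 fold change -1.05 ± 0.61). miR-148a-5p was at 141, 119 and 126.1 and then at 111, 84.1 and 86.5. miR-148a-3p, the second most abundant miRNA of these libraries, was at 107881, 47358 and 271643 and then at 86850.5, 68777 and 103746. The day 30 libraries of miR-148a-3p spanned all of the day 60 values, and its log2 fold change of -0.72 was 0.20 without day 30 replicate 3.

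Other single miRNAs were lower at day 60. miR-210, induced by the hypoxia factor HIF, was at 32.1, 66.2 and 28.1 TMM-scaled CPM at day 30 and at 14.4, 17.6 and 6.42 at day 60. It did not overlap on either scale and had a log2 fold change of -1.72 ± 0.59 (edgeR adjusted p = 0.423), or -1.08 without day 30 replicate 2. miR-7134-5p was at 854, 345 and 416 and then at 232, 247 and 238 (-1.17 ± 0.51, and -0.66 without day 30 replicate 1). The opposite arm, miR-7134-3p, went the other way at 0.50 ± 0.69, with libraries from 4579 to 15769 that overlapped.

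miR-6782-3p was at 69.998, 36.6 and 9.65 TMM-scaled CPM at day 30 and at 7.09, 6.04 and 4.90 at day 60, so the 3 day 30 libraries spread widely while the day 60 libraries lay close together (log2 fold change -2.69 ± 0.97). miR-676-3p was at 14.5, 10.8 and 14.1 and then at 4.83, 5.53 and 7.51 (-1.14 ± 0.45). miR-28-5p, from an intron of LPP, was at 35.9, 29.2 and 25.8 and then at 9.87, 21.0 and 13.4, and its other arm miR-28-3p had a log2 fold change of -0.88 ± 0.60. miR-744 was at 459, 225 and 246 and then at 164, 193 and 190.1, and miR-1285 at 13.3, 14.5 and 33.1 and then at 12.4, 5.13 and 6.86. miR-1296-5p averaged 12.9 ± 5.71 and 4.90 ± 2.18 (SD, n = 3), with overlap.

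In the miR-183, miR-96 and miR-182 cluster, 1 library set the difference. miR-182 stood at 1708 TMM-scaled CPM in day 30 replicate 1 but 198 and 307 in replicates 2 and 3, against 137, 173 and 178 at day 60. miR-183 was at 233, 4.89 and 12.2 and then at 15.5, 2.31 and 8.05, and miR-96-5p at 19.4, 0.603 and 2.08 and then at 2.57, 0.201 and 0.435. All 3 miRNAs, which RefSeq places side by side, were thus highest in the same library. Their log2 fold changes were -2.18 ± 0.66, -3.27 ± 1.19 and -2.76 ± 1.28 (edgeR adjusted p = 0.423, 0.423 and 0.589). Without day 30 replicate 1 they were -0.63, 0.03 and -0.26. The ages of miR-182 did not overlap on either scale even so, and those of miR-183 and miR-96-5p did.

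A second cluster, miR-23b, miR-27b and miR-24-2, stood apart in day 60 replicate 2. miR-27b-3p, which the myeloid list holds with its relatives, was at 987, 1230.4 and 554 TMM-scaled CPM at day 30 and at 468, 4878 and 706 at day 60. miR-23b was at 233, 208 and 124 and then at 103, 935 and 123, and miR-24-2-5p at 5.77, 2.75 and 4.01 and then at 1.13, 23.8 and 3.05. Their positive log2 fold changes of 1.13, 1.04 and 1.16 became -0.67, -0.75 and -1.01 without day 60 replicate 2. In the paralogous cluster the same library was the highest of day 60 for miR-23a, at 868 beside 401 and 452, and for miR-27a, at 348 beside 176 and 250.4. miR-24-3p, which has a gene copy in each of the 2 clusters, was also highest there, at 438, 1803 and 732 in day 60 replicates 1, 2 and 3. Another product of the paralogous cluster, miR-24-1-5p, was not, at 30.5, 43.3 and 55.9 in the same order. The myeloid list as a whole was positive in 9 of 12 tested members, with a median of 0.23 (0.09 with library totals only). miR-142-5p, specific to blood cells, averaged 328 ± 92.6 at day 30 and 521 ± 115 at day 60 (SD, n = 3), with overlap. miR-145-5p, a smooth muscle miRNA placed on that list, was at 3.07, 5.36 and 3.12 and then at 1.34, 1.71 and 1.85, without overlap on either scale.

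**Figure D4:**
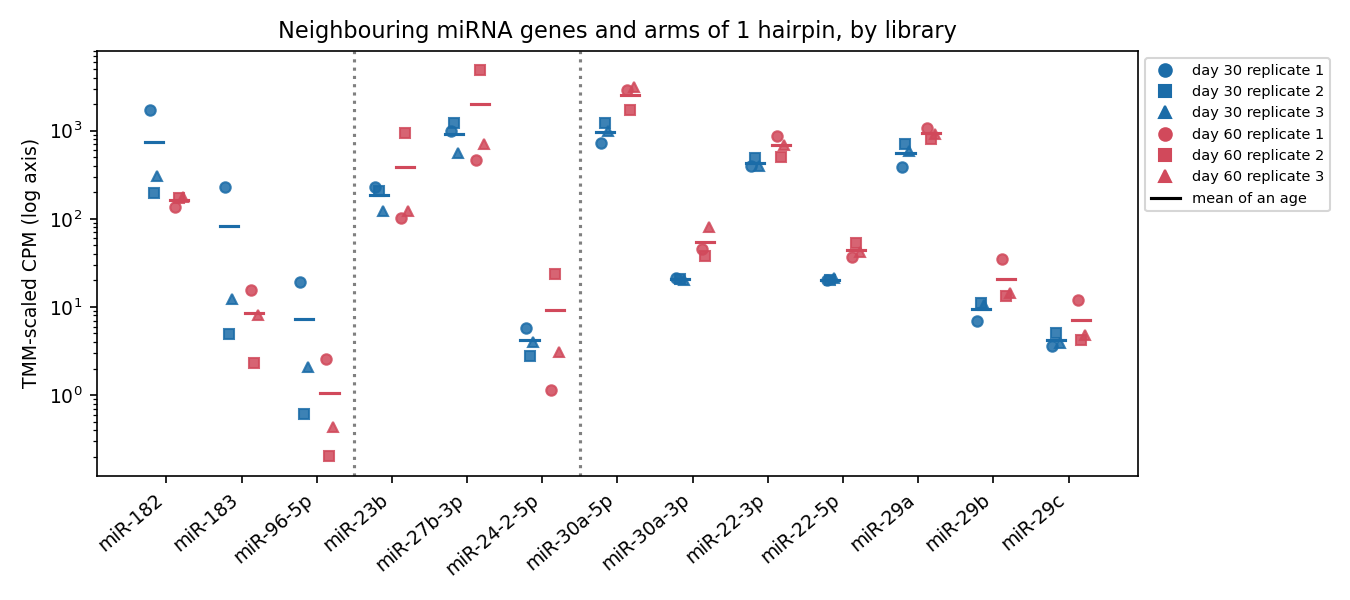
TMM-scaled CPM on a log axis in each library (symbols; blue day 30, red day 60; bars are means of 3) for the cluster of miR-183, miR-96 and miR-182, the miR-23b/27b/24-2 cluster, both arms of miR-30a and miR-22, and the miR-29 family. Day 30 replicate 1 is the highest point for miR-182, miR-183 and miR-96-5p, and day 60 replicate 2 the highest for miR-23b, miR-27b-3p and miR-24-2-5p.

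The red-cell miRNAs overlapped between the ages. miR-451, processed by Argonaute 2 without Dicer in red-cell precursors, took 41.1%, 28.3% and 40.1% of the counts at day 30 and 34.5%, 36.9% and 31.4% at day 60. Its mean share was 36.5% ± 7.10 and 34.3% ± 2.75 (SD, n = 3; two-sided exact permutation p = 0.6), and the 95% interval of its log2 fold change ran from -1.81 to 1.36. miR-486, which is abundant in red cells, took 2.38% and 2.78% on average, with an interval from -0.90 to 1.46. miR-144, transcribed with miR-451, was at 62.5, 118 and 53.3 TMM-scaled CPM and then at 118, 128 and 43.1. miR-16 averaged 4482 ± 1773 and 4419 ± 2395 (SD, n = 3).

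Of the miR-17-92 cluster and its paralogues, which drive proliferation of blood progenitors, 8 of 13 tested members were positive and 5 negative, with a median of 0.09 (-0.07 with library totals only), and none was free of overlap. miR-92a, its most abundant member, averaged 38178 ± 8409 TMM-scaled CPM at day 30 and 40531 ± 6770.0 at day 60 (log2 fold change 0.09 ± 0.61, -0.07 with library totals only). miR-363, of the X-chromosomal paralogue cluster, was at 809.9, 869.9 and 1386 and then at 2608, 897 and 1099, and miR-17-5p and miR-20a averaged 1096 and 444 and then 976 and 531. The miR-15/16 family had 3 tested members with log2 fold changes between -0.15 and 0.25. miR-7, an abundant miRNA outside that cluster, was at 20524, 17961 and 70745 and then at 35522, 38175 and 38843, so day 30 replicate 3 was the highest library and the day 60 libraries lay close together.

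Of the remaining lists, miR-10a-5p, whose gene lies among HOX genes, averaged 292 ± 113 TMM-scaled CPM at day 30 and 198 ± 99.3 at day 60, and miR-10b 7.80 ± 2.36 and 11.6 ± 2.93 (SD, n = 3). miR-103 averaged 16982 ± 3865 and 10843 ± 3552, and miR-101 141 ± 51.7 and 148 ± 59.3. In the DLK1-DIO3 cluster, an imprinted group of fetal and mesenchymal tissues, only miR-127 of 13 listed miRNAs was tested, at 1.81 ± 0.646 and 1.10 ± 0.950. All of these overlapped between the ages.

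Some of the lowest p-values belonged to miRNAs of few counts. miR-218-5p, a miRNA of SLIT gene introns and of motor neurons, had 15, 23 and 26 counts at day 30 and 122, 127 and 55 at day 60, or 1.84, 1.54 and 3.86 and then 12.5, 12.8 and 5.99 TMM-scaled CPM (log2 fold change 2.12 ± 0.67; edgeR adjusted p = 0.423). It did not overlap on either scale. miR-122, the main miRNA of hepatocytes, had 42, 13 and 7 counts and then 55, 125 and 113 (2.12 ± 0.99, and 3.42 without day 30 replicate 1). The other 4 tested miRNAs of the liver list, miR-192, miR-194a, miR-194b-5p and miR-215, had log2 fold changes from -0.43 to -0.02. miR-7140-3p had 1, 23 and 4 counts and then 62, 67 and 12, with overlap.

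miR-130a had 5, 15 and 12 counts at day 30 and 1, 2 and 2 at day 60, at or below the limit of 3 in every day 60 library. miR-133a-3p, a muscle miRNA, had 5, 4 and 6 counts and then 2, 0 and 0. Of the other muscle miRNAs, miR-206 had 0 to 4 counts in each of the 6 libraries and miR-1 lay between 0.302 and 4.31 TMM-scaled CPM, while miR-499-5p averaged 73.9 ± 26.1 and 71.0 ± 24.8 (SD, n = 3). No fold change is given for miR-130a, miR-133a-3p or miR-206, since their day 60 counts lie at or below that limit, and the fitted points plotted for miR-130a and miR-133a-3p depend on the prior count of the fit. miR-193a-5p, at 4.18, 3.15 and 2.23 and then at 4.93, 5.94 and 8.27, was also without overlap on either scale.

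The arms of a hairpin give a reading within the same transcript. Of 35 hairpins with both arms tested, 26 had the same sign of log2 fold change in both arms, 11 positive and 15 negative, and 9 had opposite signs. The 5 same-sign pairs whose smaller arm was largest were miR-30a (1.39 and 1.38 for 5p and 3p), let-7d (1.02 and 0.98), miR-28 (-1.04 and -0.88), miR-151 (-0.70 and -0.68) and miR-22 (1.12 and 0.68). The widest disagreement was in miR-7134, at -1.17 for 5p and 0.50 for 3p. Arms share a precursor and a library, so these are not independent readings.

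Set beside the other ages, the means of some of these miRNAs kept the same order through all ages and those of others did not. The means of let-7i at 0, 30, 60, 180 and 360 days were 14401, 53981, 92523, 142650.0 and 159245 TMM-scaled CPM. let-7f had the same order of means, 5365, 14532, 27291, 39411 and 50598, while let-7d-5p was highest at day 180 (636, 1262, 2565, 2824 and 2095). The mean of miR-210 was lower at each later age, at 126.6, 42.1, 12.8, 2.48 and 1.66.

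The means of other miRNAs had no single direction over the ages. In the same order of ages miR-99a averaged 3275, 12083, 6187, 14212 and 15840.0, so its day 60 mean was the lowest after birth. miR-30a-5p averaged 2627, 978, 2568, 1100 and 242, so its day 60 level lay near the newborn level and its day 30 libraries below both. miR-29a was highest at day 60 (79.5, 559, 934, 684 and 404). miR-26a was highest at day 30, at 22490.0, and between 12442 and 15759 at the other ages. miR-218-5p averaged 0.851, 2.41, 10.4, 14.2 and 9.36. These means are given as levels, with no test across ages.

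**Figure D5:**
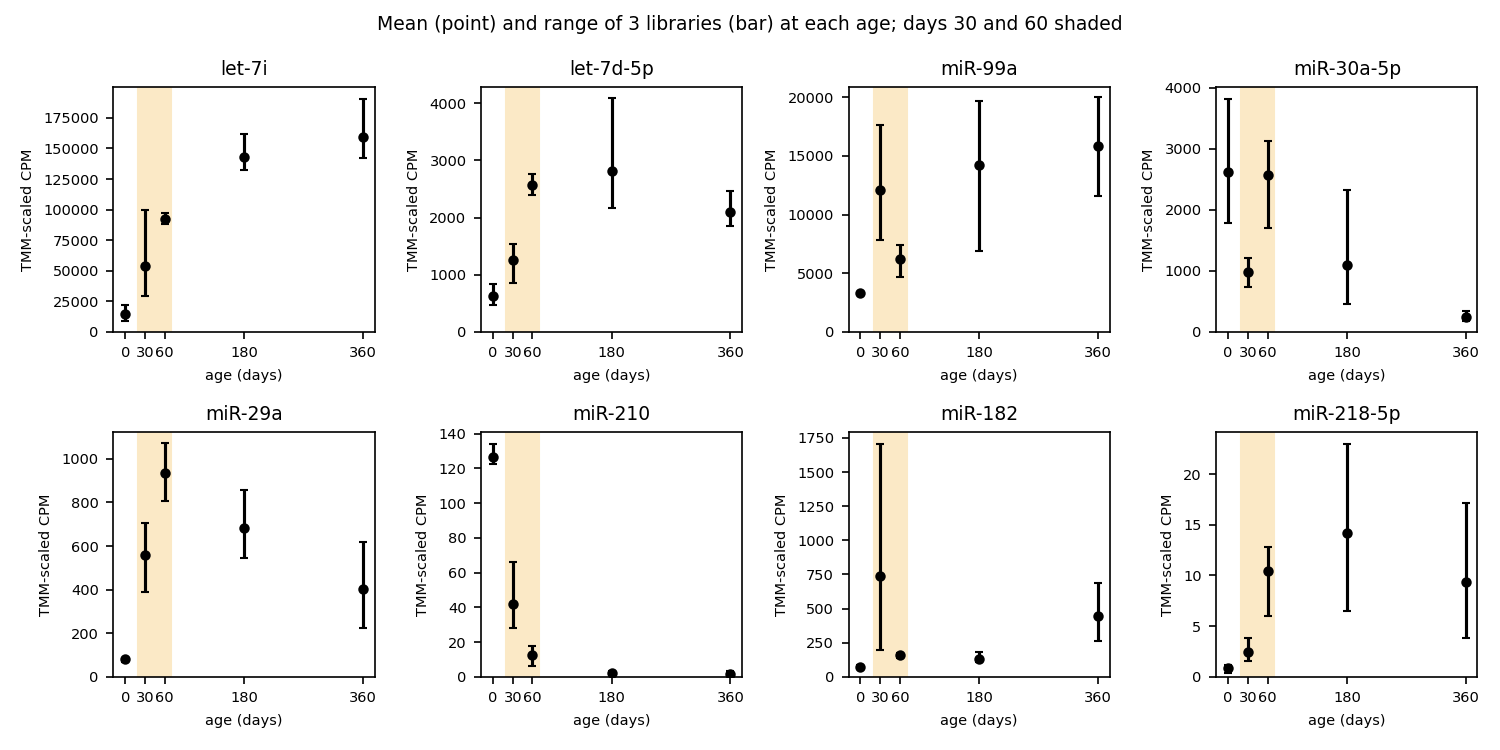
Mean TMM-scaled CPM (points) and the range of the 3 libraries (bars) at 0, 30, 60, 180 and 360 days for 8 miRNAs, each on its own linear axis from 0, with days 30 and 60 shaded. The means of let-7i are higher and those of miR-210 lower at each later age, miR-99a is lower at day 60 than at days 30 and 180, and the long bar of miR-182 at day 30 comes from day 30 replicate 1 at 1708.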

How the data were processed

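Whole-blood miRNAs were sequenced in 15 libraries, 3 biological replicates at each of 5 ages, and groups follow the labelled day. The authors deposited a table of whole-number counts per miRNA and library, and TPM values, which per the file headers belong to the same libraries. The submitters' processing notes name CASAVA 1.8.2 and HISAT2 2.0.4, with the counting tool, annotation release and build not given in the sources used here. How counts were assigned between near-identical family members is likewise unknown. The labels give the RNA as polyA RNA, while their extraction protocol describes total RNA from a miRNA kit.

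Counts were tested in R 4.3.3 with edgeR 4.0.16 (filterByExpr by age with a minimum count of 10 and total of 15, TMM factors, robust quasi-likelihood test, 1 coefficient per age over all 15 libraries, 10 residual degrees of freedom, Benjamini-Hochberg adjustment over 215 miRNAs). The shares of let-7i and miR-451 were compared by an exact permutation test, and the other shares and the ratios were not tested. DESeq2 1.42.0 and limma 3.58.1 (voom on counts, and log2(TPM + pseudocount) on the deposited TPM) served as alternatives, with other scalings, filters, a replicate block and each library left out. The fits were tested on simulated data.

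The text names the 15 miRNAs of lowest p, up to 10 of the largest differences in each direction among miRNAs of at least 50 CPM without overlap, and the 10 most abundant. The up to 4 most abundant tested members of each of 21 lists were also to be named, with relatives of shared seed. Not all of these list members are given, and miR-107, miR-130b, miR-148b-3p, miR-221-3p and miR-222 are among those left out. Further named miRNAs, such as miR-132, miR-193a-5p, miR-145-5p, miR-28-3p and the other arms or cluster members of named miRNAs, were chosen after their values were seen. The comparison and lists were chosen with earlier results of these data known. RefSeq genes of Sscrofa11.1, matched by name for 274 of 293 miRNAs, gave neighbours within 10000 bases and no coordinates. The edgeR p-values weigh the difference between the ages against the spread between samples of the same age. That spread was estimated over all 15 libraries, including those of the other ages, and holds for these samples only.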

Additional observations from a re-analysis of the deposited data

How the results depend on the processing

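All 19 alternatives gave 0 miRNAs at an adjusted p under 0.05, with lowest adjusted p-values from 0.0731 (edgeR with only the libraries of both ages) to 0.886 (edgeR without day 60 replicate 2). The count at an unadjusted p under 0.05, 18, was 11, 11 and 10 with limma on log2(TPM + 1), log2(TPM + 0.5) and log2(TPM + 5), and 10 to 18 with 1 library left out (10 without day 30 replicate 1, 11 without day 60 replicate 2 or 3). The 40 miRNAs without overlap were 21 with library totals only and 21 on TPM with each of the 3 pseudocounts, and 51 to 68 with 1 library left out, where fewer libraries need to be apart. With the replicate block there were 14 miRNAs at an unadjusted p under 0.05 and 0 at an adjusted p under 0.05. The numbers were not taken to pair the animals, because the labels do not say that they do. Same-numbered libraries correlated at -0.125, 0.287 and -0.0544 (Pearson's r across miRNAs of their deviations from the mean of their age), and not every library correlated best with its own number. These correlations cannot decide about pairing, since deviations from a mean of 3 libraries depend on one another. Of 1091 log2 fold changes of 58 named miRNAs under these alternatives, 1074 kept their direction and 17 reversed, in 10 miRNAs. Many of these miRNAs were named for a low p or a lack of overlap in these same libraries, which favours a kept direction. The count is therefore no measure for all 215 tested miRNAs, for which it was not made. Reversals came for miR-92a (-0.069 with library totals only) and let-7e (-0.079 with limma-voom and -0.1, -0.107 and -0.057 with limma on TPM at pseudocounts of 1, 0.5 and 5). With 1 library left out, ranges crossed 0 for let-7e (-0.19 to 0.57), let-7c (-0.347 to 0.063), miR-148a-3p (-0.98 to 0.20), miR-451 (-0.43 to 0.27), miR-7 (-0.23 to 1.02), miR-183 (-4.023 to 0.027), miR-23b (-0.75 to 1.57), miR-27b-3p (-0.67 to 1.64), miR-24-2-5p (-1.005 to 1.71) and the lymphoid median (-0.306 to 0.032). The miR-30 median was -0.068 with library totals only. Medians of lists under other scalings and with libraries left out were added after the data were seen. The cause of these shifts was not tested. Library totals only moved the median of all tested miRNAs to -0.17, with 88 of 215 positive. Depth limits miRNAs near 3 counts.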
